A study of Mus musculus with 4 samples.

Results

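The genes described here encode the enzymes that write, copy and remove DNA methylation in mouse embryonic stem cells (ESCs), and they were chosen by name as a list of 10: Dnmt1, Dnmt3a, Dnmt3b, Dnmt3l, Uhrf1, Hells, Tet1, Tet2, Tet3 and Tdg. All 10 were found among the 55418 rows of the gene table and each of the 10 had enough counts to be among the 18444 genes tested. The samples were RNA-seq libraries of E14, a mouse ESC line (strain given as 12910la), grown with serum and LIF on gelatin. WT ESCs, wild type at Pim3, gave 2 libraries. Pim3-/- ESCs, in which the kinase gene Pim3 had been edited with CRISPR/Cas9 and a pair of guides, also gave 2, each from a separate clone. No treatment or time differed between the groups, and the sources do not say which clone is replicate 1. With 2 clones, an effect of the genotype and of cloning cannot be told apart.

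Methylation of cytosine in CpG pairs is laid down by the de novo methyltransferases DNMT3A and DNMT3B, which DNMT3L stimulates although it has no catalytic activity of its own. At replication it is copied by DNMT1, which UHRF1 brings to hemimethylated CpGs, and HELLS, a remodeller of the SNF2 family, opens chromatin for this machinery. The TET dioxygenases oxidise 5-methylcytosine to 5-hydroxymethylcytosine and further, and the glycosylase TDG excises the most oxidised forms. ESCs in serum are known for high levels of Dnmt3l, Dnmt3b, Tet1 and Tet2 and for little Tet3.

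The libraries held 22029427 to 25668307 counts on genes. Levels are given as CPM, counts scaled to a common library size, with the TMM factors of edgeR, which were 0.828 and 0.883 for WT and 1.168 and 1.172 for Pim3-/- ESCs. With library totals in place of these factors, the median log2FC of all 18444 tested genes moved from 0.07 to 0.52. The Pim3 row, which covers sequence outside the edited sites and so does not check the labels, had 4392 and 4953 counts in WT, against 4970 and 4804 in Pim3-/- ESCs. Pou5f1, Sox2 and Nanog, which define the pluripotent state, had at least 4849 counts in every library. A gene was called when its adjusted p was under 0.05 in the quasi-likelihood test of edgeR, with p-values adjusted by Benjamini and Hochberg over all tested genes. The log2 fold change of Pim3-/- over WT is written log2FC, with its standard error (SE). By this rule 17.6% of the tested genes were higher and 16.2% lower in Pim3-/- ESCs, or 3246 and 2987 genes. With library totals these were 6605 and 1090, so that 85.8% of the calls were upward against 52.1% with TMM factors.

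Of the 10 genes, 1 was upregulated, Tet3, and 2 were downregulated, Dnmt3b and Hells. The other 7 did not pass the test. These shares, 1 and 2 of 10, are near the background shares of all tested genes. The groups did not overlap in CPM for 6 of the 10, namely these 3 with Dnmt3l, Uhrf1 and Tdg, while 72.5% of all tested genes had groups that did not overlap. The median log2FC of the 10 was -0.03, against 0.07 for all tested genes.

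**Figure D1:**
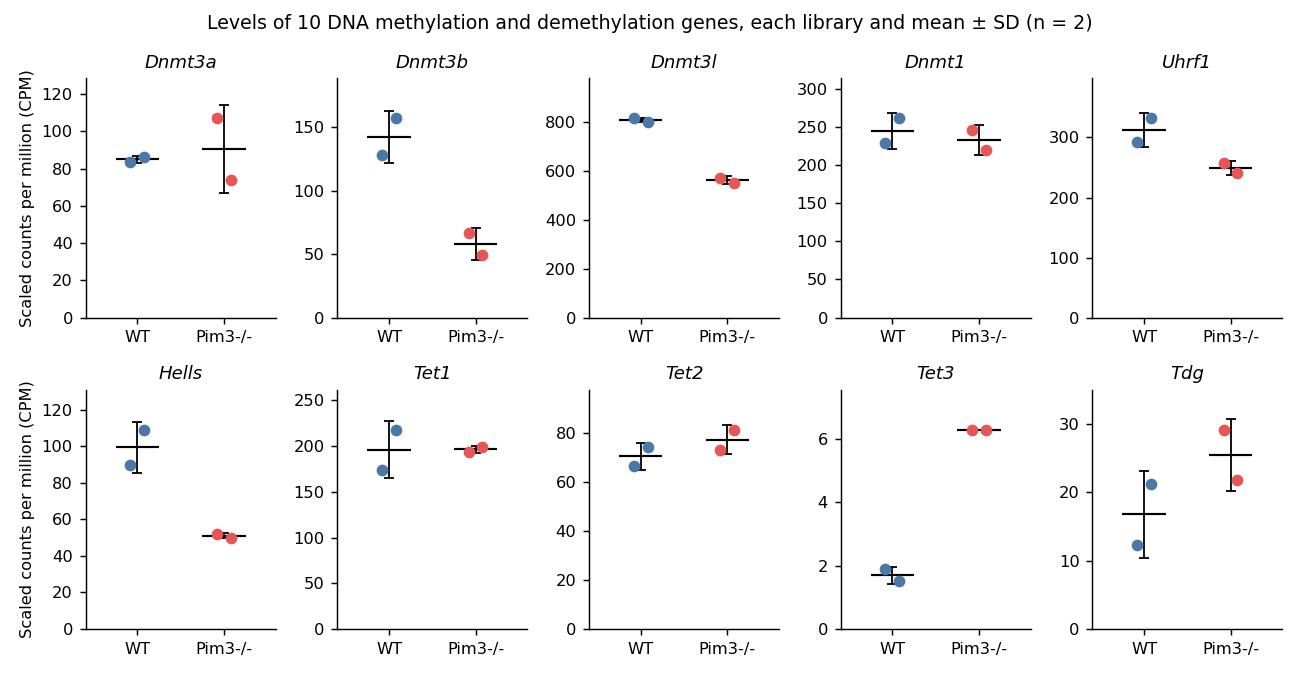
Scaled CPM (vertical axes, each from 0 with its own scale) of the 10 genes in WT (blue) and Pim3-/- ESCs (red), 1 point per library, with the mean as a bar and the SD of 2 libraries as whiskers. Dnmt3b and Hells were lower in both Pim3-/- libraries and Tet3 was higher in both, whereas Dnmt1, Tet1, Tet2 and Dnmt3a overlapped between groups.

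Among the de novo enzymes Dnmt3b fell. Dnmt3b (ENSMUSG00000027478.15, chromosome 2 of GRCm38, 153649450 to 153687730, plus strand) encodes a catalytic methyltransferase active in the early embryo. It was at 128 and 157 CPM in WT ESCs, against 66.7 and 49.3 CPM in the knockout clones. Both knockout values lay well below both WT values. The means were 143 ± 20.7 and 58.0 ± 12.3 CPM (SD, n = 2), a 2.46-fold decrease. The log2FC was -1.30, SE 0.21, at an adjusted p of 0.00636. This was the only one of the 10 genes to be called under all 11 other settings tried, with log2FC from -1.55 to -0.85 and adjusted p-values up to 0.0409. Its antisense transcript Dnmt3bos, which shares no exonic base with it, had 1 to 7 counts per library, and the related gene Dnmt3c, 93.9% identical over 1434 bases of the Dnmt3b transcript, had 3 to 21, against 1271 to 3559 for Dnmt3b.

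The window around the RefSeq transcription start of Dnmt3b is shown because it was the one gene called under every setting and because CpG pairs, printed in capitals, are the substrate of the enzymes described. It covers chr2:153649199-153649498 on the plus strand of GRCm38.p6, from 250 bases before the start to 50 after it, and holds 30 CpGs against a median of 7 in 32851 such windows of the mouse genome. As many were found in 11.7% of all windows.
Dnmt3b: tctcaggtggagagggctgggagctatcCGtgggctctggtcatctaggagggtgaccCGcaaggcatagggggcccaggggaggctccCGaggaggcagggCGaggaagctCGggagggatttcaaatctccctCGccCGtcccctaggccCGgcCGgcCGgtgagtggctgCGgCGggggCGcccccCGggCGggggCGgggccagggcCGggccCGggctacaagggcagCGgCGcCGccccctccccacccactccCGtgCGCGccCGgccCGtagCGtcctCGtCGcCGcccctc

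Dnmt3a (ENSMUSG00000020661.15, chromosome 12, 3806007 to 3914443, plus strand) encodes the other catalytic de novo enzyme. It was at 83.7 and 86.2 CPM in WT, against 107 and 73.6 CPM in Pim3-/- ESCs, where the clones lay on either side of the WT values. The log2FC was 0.09, SE 0.21, at an adjusted p of 0.76. Without Pim3-/- replicate 1 the value was -0.22 and without replicate 2 it was 0.32, so that its direction rested on which clone was kept. In fits without a knockout library, the lone clone was assumed to vary like the WT pair. The whole gene was counted, and the long and short isoforms of Dnmt3a were not separated.

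Dnmt3l (ENSMUSG00000000730.13, chromosome 10, 78041947 to 78063622, plus strand), the catalytically inactive partner, was the most abundant of the 10 per kilobase of exon, at 270 CPM per kilobase in WT ESCs. It had 814 and 800 CPM in WT and 572 and 550 CPM in Pim3-/- ESCs. The replicates were close to each other and the groups did not overlap. The log2FC was -0.52, SE 0.19, with an adjusted p of 0.0667 in edgeR and of 0.0219 in the Wald test of DESeq2, so that its call depended on the test. Without Pim3-/- replicate 1 the log2FC of Dnmt3l was -0.57 and without replicate 2 it was -0.51. Its sign depended on the scaling, at -0.07 with library totals and 0.13 after quantile normalization. The gene Aire, on the opposite strand, shares 67 exonic bases with Dnmt3l, which is 2.24% of the exonic length of Dnmt3l. Aire, named here for that overlap, was at 62.5 ± 0.86 CPM in WT and at 167 ± 13.8 CPM in Pim3-/- ESCs (SD, n = 2). Whether the counting used the strand is not given in the sources used here.

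The maintenance genes were each below 0 on the log2 scale under TMM scaling, and 1 of the 3, Hells, passed the test. Hells (ENSMUSG00000025001.11, chromosome 19, 38930915 to 38971051, plus strand) encodes the remodeller needed for methylation of repeats. It had 89.5 and 109 CPM in WT and 51.9 and 49.9 CPM in Pim3-/- ESCs. The knockout clones were nearly equal and both lay below WT. The means of 99.2 ± 13.7 and 50.9 ± 1.45 CPM (SD, n = 2) gave a 1.95-fold decrease. The log2FC was -0.96, SE 0.17, at an adjusted p of 0.00822. With library totals the log2 fold change was -0.51 and the adjusted p 0.0607. Without WT replicate 1 the adjusted p was 0.0523 and without WT replicate 2 it was 0.0846, fits in which the lone WT library was assumed to vary like the knockout pair. The Hells window, shown as that of the other downregulated gene, covers chr19:38930740-38931039 on the plus strand and holds 34 CpGs, again in capitals, a number reached by 7.73% of all windows.
Hells: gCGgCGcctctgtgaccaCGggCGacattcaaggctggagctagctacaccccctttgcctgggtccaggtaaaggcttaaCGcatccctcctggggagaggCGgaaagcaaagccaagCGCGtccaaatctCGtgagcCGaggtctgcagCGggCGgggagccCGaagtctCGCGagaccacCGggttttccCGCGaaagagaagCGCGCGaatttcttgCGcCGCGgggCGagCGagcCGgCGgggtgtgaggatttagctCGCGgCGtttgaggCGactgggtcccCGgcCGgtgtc

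Dnmt1 (ENSMUSG00000004099.16, chromosome 9, 20907209 to 20959888, minus strand), the maintenance methyltransferase, was at 228 and 261 CPM in WT, against 246 and 219 CPM in Pim3-/- ESCs. These values overlapped, and its log2FC was -0.07, SE 0.18, at an adjusted p of 0.79. Uhrf1 (ENSMUSG00000001228.14, chromosome 17, 56303321 to 56323486, plus strand), its recruiter, was at 293 and 332 CPM in WT, against 258 and 241 CPM in Pim3-/- ESCs. The groups did not overlap, but the gene did not pass, at a log2FC of -0.32, SE 0.18, and an adjusted p of 0.196. Without Pim3-/- replicate 1 its log2FC was -0.39 and without replicate 2 it was -0.30. The signs of both genes depended on the scaling. With library totals Dnmt1 was at 0.38 and Uhrf1 at 0.12, and after quantile normalization they were at 0.47 and 0.22. A processed pseudogene of Uhrf1, Gm5648, 98.3% identical over 1590 bases, had 10 to 19 counts per library.

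Dnmt1 and Uhrf1 are known to be transcribed in S phase, and their start windows were searched for the E2F motifs TTTCGCGC and TTTGGCGC on both strands. The letters occurred 2 times in the window of the downstream Dnmt1 start (chr9:20952574-20952873, minus strand) and 1 time in that of the downstream Uhrf1 start (chr17:56304063-56304362, plus strand), against 0.813% of all windows with any match. They were in none of the other windows of the 10 genes, that of Hells included. Only these 2 strings were searched. The related string TTTCCCGC, which the Hells window printed above holds, was not among them. The search therefore does not show that a window lacks E2F sites. The first match in each is shown in capitals within 30 bases, where in Dnmt1 the letters read on the opposite strand and overlap a row of CpGs.
Dnmt1: ttccgcgcGCGCGAAAaagccggggtctcg
Uhrf1: gagtcgggTTTCGCGCgcccaggcgtctcc

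On the side of demethylation Tet3 was upregulated from a low level. Tet3 (ENSMUSG00000034832.15, chromosome 6, 83362373 to 83459084, minus strand) encodes the dioxygenase best known from the oocyte and zygote and from differentiating cells. It had 36 and 34 counts in WT, against 168 and 162 in Pim3-/- ESCs. This was 1.88 and 1.5 CPM against 6.29 and 6.28 CPM, with every knockout value above every WT value. The log2FC was 1.90, SE 0.31, at an adjusted p of 0.00636, a 3.72-fold increase. It lay between 1.48 and 2.35 over the alternatives. Without WT replicate 1 the adjusted p was 0.055 and without WT replicate 2 it was 0.0711, again with the lone WT library assumed to vary like the knockout pair, while the log2 fold changes were 2.01 and 1.66. No other gene shared exonic bases with Tet3. The Tet3 window, shown as that of the upregulated gene, covers chr6:83441629-83441928 on the minus strand and holds 22 CpGs, a number reached by 23.1% of all windows.
Tet3: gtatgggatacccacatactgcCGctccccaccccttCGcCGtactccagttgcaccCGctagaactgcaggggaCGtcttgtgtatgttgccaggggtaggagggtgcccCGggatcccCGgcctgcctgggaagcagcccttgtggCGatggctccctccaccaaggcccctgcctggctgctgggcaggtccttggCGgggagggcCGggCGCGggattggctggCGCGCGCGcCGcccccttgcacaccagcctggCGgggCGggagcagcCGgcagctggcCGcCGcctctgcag

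Tet1 (ENSMUSG00000047146.17, chromosome 10, 62804570 to 62908996, minus strand), the main TET enzyme of ESCs, was at 174 and 218 CPM in WT, against 194 and 199 CPM in Pim3-/- ESCs. The knockout values lay between the WT values, and its log2FC was 0.00, SE 0.19, at an adjusted p of 0.99. Tet2 (ENSMUSG00000040943.12, chromosome 3, 133463679 to 133545139, minus strand), which lacks the DNA-binding CXXC domain of the other two, was at 66.4 and 74.3 CPM in WT, against 73.0 and 81.2 CPM in Pim3-/- ESCs. These ranges overlapped as well, and the log2FC was 0.13, SE 0.17, at an adjusted p of 0.563. With library totals Tet2 passed, at 0.58 with an adjusted p of 0.0352.

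Tdg (ENSMUSG00000034674.18, chromosome 10, 82629828 to 82650799, plus strand), the glycosylase, was at 12.3 and 21.3 CPM in WT, against 29.2 and 21.8 CPM in Pim3-/- ESCs. WT replicate 2 and Pim3-/- replicate 2 were nearly equal, and the gene did not pass, at a log2FC of 0.60, SE 0.29, and an adjusted p of 0.139. It passed with library totals, at 1.04 with an adjusted p of 0.0255. Without Pim3-/- replicate 1 it was at 0.35 and without Pim3-/- replicate 2 at 0.77. Without WT replicate 1 it was at 0.20. The Tdg count is uncertain because the annotation holds 4 processed pseudogenes similar to it. Of these Gm9855, 99.2% identical over 1194 bases, had 476 and 739 counts in WT, against 1357 and 1012 in Pim3-/- ESCs, more than Tdg itself in every library. With the pseudogene counts added to Tdg, which was tried only after the data had been seen, the sums were 718 and 1230 in WT and 2148 and 1598 in Pim3-/- ESCs. The log2FC was then 0.63, SE 0.23, at an adjusted p of 0.0657, close to that of Tdg alone. Glt8d2, on the opposite strand, shares 367 exonic bases with Tdg and had 6 to 35 counts.

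**Figure D2:**
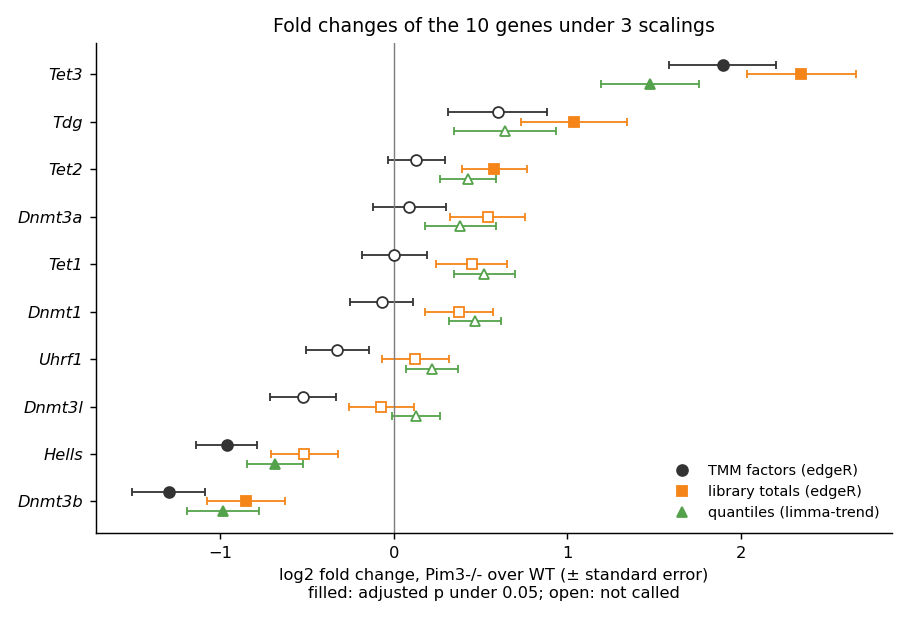
Log2 fold changes of Pim3-/- over WT ESCs (horizontal axis, with standard errors) for the 10 genes with TMM factors (circles), library totals (squares) and quantile normalization (triangles). Filled symbols passed an adjusted p of 0.05. Tet3 and Dnmt3b were called in each of the 3 scalings, and Hells was not called with library totals.

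Ratios between members within a library do not depend on the scaling between libraries, and 6 were computed on the counts. Dnmt3a was at 0.655 and 0.549 times the count of Dnmt3b in WT and at 1.61 and 1.49 times in Pim3-/- ESCs, 2.59-fold higher. Dnmt3l to Dnmt3b went from 6.36 and 5.09 to 8.57 and 11.2. Within the maintenance group the ratio of Hells to Dnmt1 was 0.393 and 0.418 in WT and 0.211 and 0.227 in Pim3-/- ESCs, 1.85-fold lower. The ratio of Uhrf1 to Dnmt1 was 1.29 and 1.27 against 1.05 and 1.10. Tet3 had 0.0108 and 0.00687 counts per count of Tet1 in WT and 0.0325 and 0.0316 in Pim3-/- ESCs, 3.71-fold more. For these 5 ratios the groups did not overlap, and for Tet2 to Tet1, at 0.383 and 0.340 against 0.376 and 0.408, they did. The exact permutation test, two-sided, with 2 values a group cannot go below 0.333, which was its p for the 5 ratios (0.4 adjusted over the 6), so that no ratio could pass.

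Levels were compared between genes as CPM per kilobase of exon, counting each exonic base of the gene once. In WT ESCs the order ran from Dnmt3l (270 ± 3.34, SD, n = 2) over Uhrf1 (73.4 ± 6.34), Dnmt1 (33.1 ± 3.14), Dnmt3b (27.9 ± 4.06), Hells (13.8 ± 1.90), Tet1 (12.7 ± 2.05), Dnmt3a (5.11 ± 0.11), Tet2 (4.17 ± 0.33) and Tdg (3.12 ± 1.19) to Tet3 (0.10 ± 0.016). Hells and Tet1 did not differ beyond their spread, nor did Tet2 and Tdg. In Pim3-/- ESCs Tet1 (12.7 ± 0.24) stood before Dnmt3b (11.4 ± 2.41), with overlapping ranges, and Hells followed at 7.07 ± 0.20. Dnmt3a, Tdg and Tet2, at 5.44 ± 1.43, 4.74 ± 0.97 and 4.57 ± 0.35 CPM per kilobase, overlapped with each other but not with Hells or Tet3. Tet3 remained last at 0.377 ± 0.00044, so that even after its increase it was the least abundant of the 10.

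The make-up of each family per kilobase follows from these levels. Of the Dnmt3a and Dnmt3b transcripts together, Dnmt3a made up 16.7% and 14.4% in WT, against 33.0% and 31.4% in Pim3-/- ESCs. Dnmt3b was therefore the larger part in each library, at 84.4% ± 1.64 in WT and 67.8% ± 1.15 in Pim3-/- ESCs (SD, n = 2). Within the TET family Tet1 made up 74.7% ± 1.68 in WT and 72% ± 1.03 in Pim3-/- ESCs. Tet3 made up 0.61% ± 0.18 of the family in WT and 2.13% ± 0.073 in Pim3-/- ESCs. With the longest transcript as the length, the share of Dnmt3a was 21.1% ± 2.08 in WT and 40.9% ± 1.27 in Pim3-/- ESCs, and that of Tet3 0.736% ± 0.21 and 2.55% ± 0.10.

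**Figure D3:**
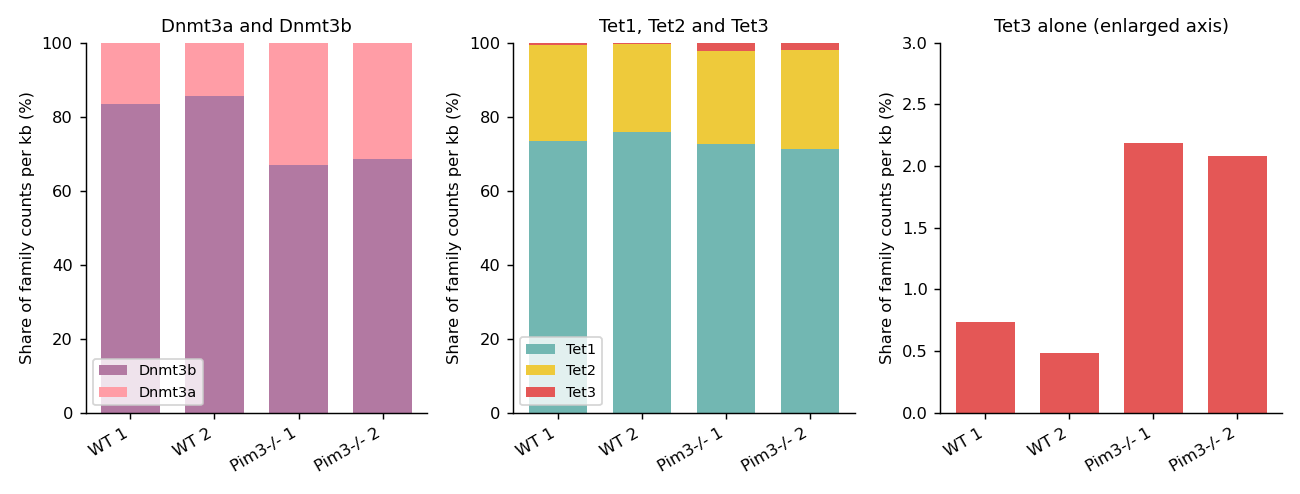
Share of each gene in the counts per kilobase of its family (vertical axes, percent), 1 bar per library. Dnmt3a made up 14.4% to 16.7% of Dnmt3a and Dnmt3b in WT and 31.4% to 33.0% in Pim3-/- ESCs, and Tet3, drawn again on an axis from 0 to 3%, 0.483% to 0.737% of the TET family in WT and 2.08% to 2.19% in Pim3-/- ESCs.

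Fold changes in this series varied with expression level. Genes with a mean log2 CPM from 6 to 8, as Dnmt1, Dnmt3a, Dnmt3b, Hells, Tet1 and Tet2, had a median log2FC of -0.41 (2501 genes), and those over 8, as Dnmt3l and Uhrf1, one of -0.73 (583 genes). Below 0 the median was 0.86 and between 0 and 2 it was 0.53. Between 2 and 4, the level of Tet3, it was 0.20, and between 4 and 6, the level of Tdg, it was -0.09. Dnmt3b and Hells lay below the median of their level and Tet3 above it. After quantile normalization the 3 genes were called with log2 fold changes of -0.98, -0.68 and 1.48 and adjusted p-values of 0.0276, 0.0353 and 0.0233 from limma. The part of the level in these calls was not tested.

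Markers of other cell types also differed between the groups. Of the 16 primitive endoderm genes listed, 13 were tested and 11 were higher, beside 17.6% of all tested genes. Of the 13, 7 had a mean log2 CPM from 0 to 2, where the median log2FC of all genes was 0.53. The median of the 13 was 3.16. Their summed levels were 449 and 466 CPM in WT and 755 and 728 CPM in Pim3-/- ESCs. Sparc, which did not pass, made up most of the WT sums, at 359 and 358 CPM against 276 and 314 CPM in Pim3-/- ESCs. Sox7 was at least 20.8-fold higher, from 3 and 0 counts to 91 and 67, Sox17 went from 1 and 5 counts to 85 and 10, and Ttr stayed at 3 counts or fewer in every library. Sox17 was not called after quantile normalization, without either WT library or without Pim3-/- replicate 1. Its log2FC ranged from 1.39 to 4.87 over the alternatives. Of 9 tested formative and primed genes 5 were higher and 1, Pou3f1, was lower, with sums of 56.1 and 61.6 against 111 and 141 CPM, and Fgf5 was at 3 counts or fewer in every library. Among them Lef1 rose from 39 and 33 counts to 522 and 154 and Sox3 from 21 and 27 to 203 and 136. Trophoblast genes were higher in 5 of 10 tested, Gata3 and Eomes among them, with sums of 150 and 149 against 151 and 169 CPM. By log2FC, 7 of the 10 lay above 0 and 3 below, namely Tfap2c (-0.39), Krt18 (-0.58) and Krt8 (-0.17), none of them called. Cdx2, from 1 and 5 counts to 12 and 2, and Elf5, from 3 and 5 to 6 and 3, were too low to be tested. Gata3 rose from a low level, 4 and 4 counts, to 28 and 22. Gata3 was not called by DESeq2, after quantile normalization or without either WT library. Of the fibroblast genes 5 of 12 were tested, Pdgfrb and Twist1 were higher and S100a4 lower, the sums were 32.9 and 32.5 against 54.4 and 53.7 CPM, and Col3a1, Lum, Dcn, Postn and Prrx1 had at most 3 counts in every library. Twist1 was not called after quantile normalization, without either WT library or without Pim3-/- replicate 2. Of 16 pluripotency genes 2 were higher, Tbx3 and Klf4, and 6 lower, among them Pou5f1 (log2 fold change -1.12), Dppa4 (-1.22) and Nanog (-0.90), with sums of 12360 and 11241 against 8263 and 8186 CPM. The median log2FC of the 16 was -0.20. Of them 6 had a mean log2 CPM from 6 to 8 and 10 one over 8. At these levels the medians of all genes were -0.41 and -0.73. The paper reports a rise of Nanog in Pim3-/- ESCs, by qPCR and by a western blot of the protein. It also reports by qPCR that Oct4 (Pou5f1) and Sox2 were not disrupted there. In the paper, Nanog RNA rose as well with Pim3 shRNA and with a PIM3 inhibitor. Sox2 was at a log2FC of 0.38 and did not pass (adjusted p 0.218), but it was called higher with library totals (0.83, adjusted p 0.0218) and after quantile normalization (0.93, adjusted p 0.0378). Nanog lost its call with library totals (-0.45, adjusted p 0.0992) and after quantile normalization (-0.26, adjusted p 0.24), and Pou5f1 after quantile normalization (-0.37, adjusted p 0.16). Pou5f1 and Nanog were not called when either WT library was left out. Their log2 fold changes were -1.11 and -0.94 without WT replicate 1 and -1.28 and -0.99 without WT replicate 2. Tbx3, Klf4 and Dppa4 were not called without WT replicate 1. In bulk RNA, fewer cells of a type and less RNA per cell cannot be told apart, and the part of these markers in the changes of Tet3, Dnmt3b and Hells was not tested.

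The genes that work with the enzymes were taken from lists and are described by counts, beside the background shares of 17.6% and 16.2%. All 12 genes listed under methyl-CpG binding and reading were tested. The list was set by name, and not every protein on it, Trim28 and Mbd6 included, is known to bind methylated CpGs. In edgeR at the adjusted threshold 3 of the 12 were higher and 0 lower, with a median log2FC of 0.41. At an unadjusted p under 0.05, 2 were lower, Trim28 (adjusted p 0.0586) and Zfp57 (0.0666), and the DESeq2 Wald test called 1 higher and 2 lower. Zbtb4, a zinc finger protein that binds methylated CpGs, rose from 9 and 6 counts in the WT libraries to 67 and 143 in the clones, at a log2FC of 3.45, SE 0.57, and an adjusted p of 0.00649. Mbd1, a methyl-CpG binding repressor, was at 15.3 ± 0.90 and 24.1 ± 2.16 CPM (SD, n = 2), a log2FC of 0.66. Mbd1 was not called by DESeq2 or after quantile normalization, and Mbd6, the third, was at 0.56.

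Among 22 tested partners and regulators of the enzymes, 3 were higher and 6 lower, against 7 and 2 with library totals and 4 and 3 after quantile normalization. Dppa3, which keeps UHRF1 from chromatin and protects the maternal genome from TET3, fell from 318 and 306 counts to 115 and 31. Its log2FC was -2.44, SE 0.51, at an adjusted p of 0.0121. The knockout clones differed for this gene, and both lay below WT. Pcna, the replication clamp that also binds DNMT1, fell 3.18-fold, from 646 ± 42.2 to 203 ± 39.1 CPM (SD, n = 2). Sall4, a pluripotency factor that binds TET enzymes, rose 1.79-fold, and Kdm2b, a histone demethylase that binds CpG islands, rose 1.47-fold. The third that rose was Cxxc5, at a log2FC of 0.50. Kdm2b was not called by DESeq2, and neither Sall4 nor Kdm2b was called when either WT library was left out.

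Downstream of TDG, base excision repair fills the gap. Of 23 tested genes of this pathway and of deaminases, 1 was higher and 7 lower. The balance depended on the scaling, with 4 higher and 1 lower with library totals and 1 higher and 3 lower after quantile normalization. Lower calls ranged from 1 to 16 when a library was left out. Apex1, the endonuclease that cuts at abasic sites, fell 3.12-fold, from 329 ± 23.0 to 105 ± 9.22 CPM (SD, n = 2, adjusted p = 0.0034). Nthl1, a glycosylase for oxidised pyrimidines, fell 1.96-fold, a call that was lost with library totals and after quantile normalization. Gadd45b, a stress-induced gene linked to active demethylation, rose 1.52-fold, which was lost in the DESeq2 test.

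The methyl donor of all DNMT enzymes is S-adenosylmethionine. Of 23 tested genes of its synthesis and of one-carbon metabolism, 8 were lower, with a median log2FC of -0.25. Lower calls were 3 with library totals and 3 after quantile normalization. Of the 23, 9 had a mean log2 CPM from 6 to 8 and 3 one over 8. At these levels the medians of all genes were -0.41 and -0.73. The part of the level in the counts of this list was not tested. Tdh, the threonine dehydrogenase that feeds one-carbon units in mouse ESCs, fell 3.15-fold, from 676 ± 14.9 to 215 ± 34 CPM (SD, n = 2). Tyms, which makes thymidylate, had 3258 and 3373 counts in WT, against 2083 and 782 in Pim3-/- ESCs, a 2.94-fold decrease with a standard error of 0.39 on the log2 scale. Its log2FC ranged from -2.41 to -1.05 over the alternatives, and its call was lost after quantile normalization and without WT replicate 1. With Pim3-/- replicate 2 left out the median of the list lay at -0.045 relative to all genes and with replicate 1 left out at -0.80, against -0.32 with all libraries.

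The TET enzymes need 2-oxoglutarate, iron and, for full activity, ascorbate. Of 20 tested genes of this supply 2 were higher and 8 lower, against 4 and 1 with library totals. Their median log2FC was -0.45. Of the 20, 12 had a mean log2 CPM from 6 to 8 and 3 one over 8. At these levels the medians of all genes were -0.41 and -0.73. The part of the level in the counts of this list was not tested. The 2 that rose, Slc2a1 and Slc2a3, carry glucose as well as oxidised ascorbate. Slc2a1 went from 7436 and 9112 counts to 56402 and 53783, a 5.31-fold rise, and Slc2a3 rose 3.42-fold, with an adjusted p of 0.051 without WT replicate 1. Sdhb and Sdhd, subunits of succinate dehydrogenase, which removes the TET inhibitor succinate, fell 2.43-fold and 1.88-fold, and the call of Sdhd was lost with library totals and after quantile normalization. After quantile normalization 1 gene of this list was lower.

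Germline genes with promoters that are methylated in somatic cells are known to respond to loss of DNMT activity. Of 29 tested, 11 were higher and 3 lower, with a median log2FC of 0.61. Of these genes 10 had a mean log2 CPM under 2, where the medians of all genes were 0.86 (below 0) and 0.53 (0 to 2), and 10 one between 2 and 4, where it was 0.20. The part of the level in the counts of this list was not tested. Taf7l, a testis form of a TFIID subunit, had 68 and 68 counts in WT, against 176 and 737 in Pim3-/- ESCs, a 5.37-fold rise to which replicate 2 contributed most. Its log2FC ranged from 0.996 to 3.11 over the alternatives, and its call was lost after quantile normalization and without either WT library. Brdt, a testis bromodomain protein, rose 4.20-fold, from 35 and 33 counts to 201 and 161, and was not called without WT replicate 2 (adjusted p 0.0532). Rhox6 and Hormad1 were lower, by 2.39-fold and 1.79-fold, with adjusted p-values of 0.0499 and 0.0492. Neither was called with library totals or with at least 10 counts in every library. Hormad1 was also not called without a filter, by DESeq2 or with the replicate block. Over the alternatives the log2FC ranged from -1.68 to -0.79 for Rhox6 and from -1.13 to -0.39 for Hormad1. Rpl10l, a testis form of a ribosomal protein and the third that fell, was at a log2FC of -0.83. The counts of this list depended on the scaling, with 17 higher and 0 lower with library totals (edgeR) and 3 higher and 3 lower after quantile normalization (limma). DNA methylation itself was not measured.

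Dnmt1, Uhrf1 and Hells are known to peak with the replication genes in dividing cells. Each of the 31 replication genes tested had a log2FC below 0, from -1.47 to -0.02 with a median of -0.67, and 15 were called lower and 0 higher by edgeR. Pola1, a subunit of DNA polymerase alpha, fell 2.76-fold and Rfc3, a subunit of the clamp loader, 2.67-fold. Beside this median, Hells was at -0.96, Uhrf1 at -0.32 and Dnmt1 at -0.07. Of the 31 genes 19 had a mean log2 CPM from 6 to 8 and 7 one over 8. At these levels the medians of all genes were -0.41 and -0.73. The part of the level in the counts of this list was not tested. The median relative to all genes was -0.74. It was -0.344 after quantile normalization, -1.09 without Pim3-/- replicate 1 and -0.491 without replicate 2. The 15 lower calls became 7 with library totals, 8 after quantile normalization, 4 and 7 without WT replicate 1 and 2, and 27 without Pim3-/- replicate 1.

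**Figure D4:**
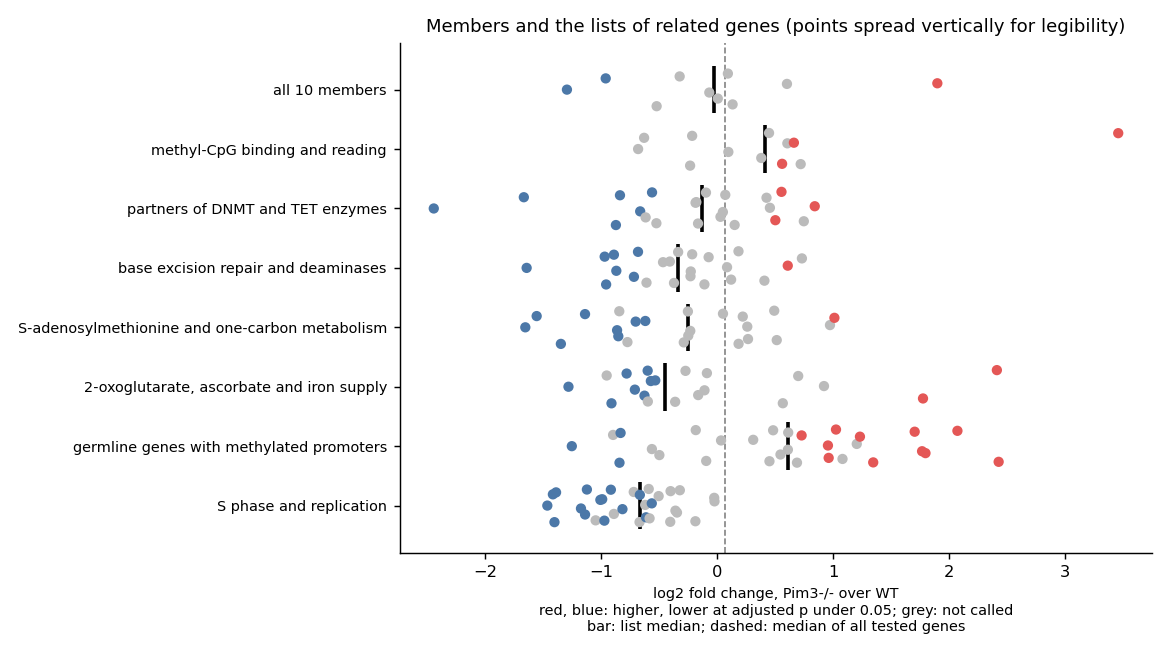
Log2 fold changes of Pim3-/- over WT ESCs (horizontal axis) for the 10 members and the tested genes of 7 related lists, 1 point per gene, red where higher and blue where lower at an adjusted p under 0.05 in edgeR. Bars mark list medians, from -0.67 for replication genes to 0.61 for germline genes, and the dashed line the median of all tested genes, 0.07.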

How the data were processed

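RNA-seq of E14 ESCs was analysed, with 2 WT samples and 2 Pim3-/- clones, 1 library each. The authors deposited raw counts per gene, without normalization. The paper names Cutadapt for trimming, Hisat2 for mapping to mm10 and Ensembl genes, whereas the submitters' processing notes name Trim Galore, STAR, featureCounts and GRCm38. Versions, the strand setting and the treatment of reads with several locations are not given in the sources used here. The counts were tested as deposited. The deposited table of repeat counts and the comparison tables of the supplement were not used here.

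Genes with low counts were removed with filterByExpr (minimum count 10, minimum total 15), counts were scaled by TMM factors, and groups were compared with the quasi-likelihood test of edgeR 4.0.16 with Benjamini-Hochberg adjustment over 18444 genes. Alternatives were RLE size factors, library totals, quantile normalization, other count filters, the Wald test of DESeq2, a replicate block and leaving out each library. They used limma 3.58.1 and DESeq2 1.42.0 in R 4.3.3. The methods were tested on simulated data. Gene models came from GENCODE M21 (GRCm38), matched by symbol for all 10 genes, and start windows from RefSeq (GRCm38.p6), 17 windows for the 10 genes. Similar transcripts were searched with BLAST 2.17.0 (at least 90% identity over 200 bases). Figures were drawn with matplotlib 3.10.9. Exact permutation tests were two-sided.

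The members and lists were chosen with earlier results of these data known. From each list the 2 called genes with the largest rise and the 2 with the largest fall are named, if both libraries of the higher group had at least 10 counts. A gene that this rule selects is not reported here. Replicate numbers come from the sample titles. The sources call the knockout samples clones and the WT samples biological samples, and p-values measure the spread between these 4 libraries only. A count of 3 was taken as the floor, 0.112 to 0.157 CPM, which covers counting error only.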

Additional observations from a re-analysis of the deposited data

How the results depend on the processing

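Dnmt3b was called under all 11 settings, Tet3 under 9 and Hells under 8, and each kept its direction. Some values moved or changed sign, and beyond the scaling, filter or number of libraries that defines each setting the cause was not tested. Medians of lists are log2 fold changes relative to all tested genes. Dispersion with 1 library left out comes from the remaining pair, so that the lone library is assumed to vary like it.

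With library totals, 6605 genes were higher and 1090 lower, with 3 of the 10 enzymes higher and 1 lower. Calls were 7 higher for the methyl-CpG list (readers below), 7 higher and 2 lower for partners and 4 and 1 for base excision repair. They were 6 and 3 for one-carbon metabolism, 4 and 1 for dioxygenase supply, 17 and 0 for germline genes and 7 lower for replication. Dnmt1 turned to 0.379 and Uhrf1 to 0.124. After quantile normalization (limma), 1983 genes were higher. Lower calls were 3 for partners, 3 for base excision repair, 3 for one-carbon metabolism, 1 for dioxygenase supply and 8 for replication, and 3 germline genes were higher. Medians were 0.0969 for partners, which turned sign, -0.125 for repair, -0.118 for supply and -0.344 for replication. Dnmt3l turned to 0.127, Dnmt1 to 0.468 and Uhrf1 to 0.221.

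Without a filter, readers had 1 higher and 1 lower with a median of 0.105, partners 1 higher with -0.438, repair 0 higher, supply a median of -0.755 and germline genes 0.304, and Tet1 was at -0.0308. DESeq2 called 1 reader higher and 2 lower, 1 partner higher and 0 repair genes higher, with Tet1 at -0.0348. Tet1 was at -0.0347 with RLE factors. With at least 10 counts in every library, the median of partners was -0.0756, repair had 3 lower, one-carbon metabolism 2 higher, supply 5 lower and germline genes 1 lower, and Dnmt1 was at 0.0106. By longest transcript, 6 of the 10 enzymes kept their place in Pim3-/- ESCs.

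Leaving out each library in turn gave 402 to 5392 genes higher and 373 to 5255 lower, and 0 to 3 enzymes higher and 1 to 4 lower. The ranges of higher and of lower calls were 1 to 7 and 0 to 3 for readers, 0 to 7 and 2 to 8 for partners, 0 to 3 and 1 to 16 for repair, 0 to 4 and 2 to 13 for one-carbon metabolism, 1 to 4 and 1 to 13 for supply and 1 to 16 and 0 to 5 for germline genes, and replication had 4 to 27 lower. Medians ran from 0.114 to 0.491 for readers, -0.278 to -0.0427 for partners, -0.799 to -0.045 for one-carbon metabolism, 0.406 to 0.567 for germline genes and -1.09 to -0.491 for replication. Dnmt3a ran from -0.225 to 0.32 and Tet1 from -0.204 to 0.0963.

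WT and Pim3-/- samples share only a replicate number, and the deviations of same-numbered libraries correlated at 0.0391. With the replicate block, 3403 genes were higher and 3272 lower, 2 repair genes were higher, and no call among the 10 enzymes changed.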
